A study of Mus musculus with 6 samples.

Results

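The genes described here encode receptors for the Fc part of immunoglobulin G, paired immunoglobulin-like receptors and the adaptors through which they signal in bone marrow neutrophils. They are the 10 rows, of 52636 in the deposited expression table, whose symbol is Fcgr1, Fcgr2b, Fcgr3, Fcgr4, Fcer1g, Fcgrt, Pirb, Pilra, Pilrb1 or Tyrobp. RNA was sequenced from neutrophils of C57BL/6N mice aged 10 weeks, as 3 WT libraries and 3 libraries labelled LRP5-null, whose genotype label gives floxed Lrp5 alleles with Lyz2Cre, a Cre recombinase inserted in the myeloid gene Lyz2 and active in monocytes and macrophages as well as neutrophils. The label of the other group says WT and nothing of Cre or floxed alleles, and no label gives a treatment. The labels name a discontinuous Percoll gradient for the isolation of the cells, whereas the methods for RNA-seq name sorting on CD11b and Ly6G. They also differ on the library kit (an mRNA kit against a stranded total RNA kit), and the methods name single-end reads where the read summary lists insert sizes, as paired reads give, so what its read number counts is uncertain. Neither says which libraries came from separate mice, so p-values measure the spread between these libraries, which may be technical.

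Neutrophils take up antibody-coated particles through Fc gamma receptors. The activating receptors, encoded by Fcgr1, Fcgr3 and Fcgr4, have no signalling tail of their own and rely on the common gamma chain, encoded by Fcer1g, whose tail carries an immunoreceptor tyrosine-based activation motif (ITAM) that recruits the kinase Syk. Fcgr2b encodes the only inhibitory Fc gamma receptor, with an inhibitory motif (ITIM) that recruits phosphatases. Paired receptors are families with similar outer domains and opposite tails. PIR-B (Pirb) binds MHC class I molecules and carries ITIMs, PILR-alpha (Pilra) is inhibitory, and PILR-beta (Pilrb1) activates through the adaptor DAP12 (Tyrobp). Fcgrt encodes the heavy chain of FcRn, which pairs with beta-2-microglobulin and recycles immunoglobulin G.

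Expression was given as TPM, which the authors corrected for gene length and scaled to one total per library, so levels of different genes can be set side by side. The 4 Fc gamma receptor and gamma chain genes Fcgr2b, Fcgr4, Fcgr3 and Fcer1g lie on chromosome 1 of NCBIM37 (mm9), at 172890689 to 172906678, 172949051 to 172959892, 172981300 to 172995066 and 173159703 to 173164496. Fcgr4 is on the plus strand and the others are on the minus strand. Fcgr1 lies apart from them on chromosome 3 (96086832 to 96098179, minus strand). Pilra (138263180 to 138277506) and Pilrb1 (138293375 to 138299277) are neighbours on the minus strand of chromosome 5. On chromosome 7, Pirb, which that annotation lists as Lilrb3, spans 3663011 to 3671993 (minus strand), Tyrobp 31198807 to 31202596 (plus strand) and Fcgrt 52348363 to 52359192 (minus strand).

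Promoter sequences are shown for Pirb, Fcgr4 and Pilrb1, because these were the 3 genes of the group whose level was lower in every library labelled LRP5-null than in every library labelled WT. Each is the RefSeq window of 300 bases around the start in build GRCm38.p6, read in the direction of the gene. Capitals mark GAGGAA or its reverse complement TTCCTC, letters found in sites of PU.1, the transcription factor that directs many myeloid genes.
Pirb, chr7:3720333-3720632, minus strand: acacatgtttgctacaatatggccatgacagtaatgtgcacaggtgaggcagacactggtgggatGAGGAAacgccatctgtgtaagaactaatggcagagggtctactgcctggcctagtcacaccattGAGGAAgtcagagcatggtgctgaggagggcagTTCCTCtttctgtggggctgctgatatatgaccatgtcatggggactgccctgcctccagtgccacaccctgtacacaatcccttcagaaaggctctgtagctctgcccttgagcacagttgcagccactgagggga
Fcgr4, chr1:171018676-171018975, plus strand: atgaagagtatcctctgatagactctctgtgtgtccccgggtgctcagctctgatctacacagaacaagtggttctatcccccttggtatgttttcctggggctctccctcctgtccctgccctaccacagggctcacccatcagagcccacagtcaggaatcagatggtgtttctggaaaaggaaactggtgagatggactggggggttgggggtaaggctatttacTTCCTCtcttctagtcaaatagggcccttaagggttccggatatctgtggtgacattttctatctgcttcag
Pilrb1, chr5:137858000-137858299, minus strand: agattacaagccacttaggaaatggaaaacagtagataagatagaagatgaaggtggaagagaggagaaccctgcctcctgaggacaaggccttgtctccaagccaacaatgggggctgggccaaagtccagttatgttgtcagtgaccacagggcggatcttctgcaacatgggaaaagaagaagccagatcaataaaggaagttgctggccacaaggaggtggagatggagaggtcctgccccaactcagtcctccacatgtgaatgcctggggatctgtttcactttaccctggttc
The Pirb window holds 3 matches, beginning 185, 120 and 87 bases before the start. That of Fcgr4 holds 1, beginning 22 bases before the start, and that of Pilrb1 holds 0. Windows were found for 9 of the 10 genes, in all 10 windows, since those of Fcgr3 overlap and are counted apart. The letters are on either strand in 6 of these 10 windows, against 28.3% of 32851 windows of this length. The 6 windows belong to 5 genes (Fcgr1, Fcgr3, Fcgr4, Pilra and Pirb). The longer run GAGGAAGT, which contains the shorter one, is in the windows of Pirb and Fcgr4 and in 3.2% of all windows, both strands counted. A match describes the letters and does not show binding.

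Together the 10 genes held 0.742% to 0.771% of all TPM in the libraries labelled WT and 0.763% to 0.799% in those labelled LRP5-null. The adaptors stood highest. Tyrobp had a mean of 4409 TPM over the 6 libraries, the rank of 16 among all rows, and Fcer1g had 1388 TPM, the rank of 47. The order then ran from Fcgr3 (998 TPM) to Pirb (263 TPM), Fcgr4 (231 TPM), Pilra (221 TPM), Pilrb1 (115 TPM) and Fcgr2b (33.4 TPM). Of neighbours in this order, Pirb and Fcgr4 overlapped in their ranges (227 to 298 and 223 to 239 TPM), though Pirb was the higher of the pair within each library. Fcgr4 and Pilra (209 to 240 TPM) overlapped as well and changed places between libraries. Fcgrt (0.386 to 0.967 TPM) and Fcgr1 (0.496 to 0.761 TPM) stayed under 1 TPM in all 6 libraries, could not be ordered beyond their spread and did not enter the tests. The high-affinity receptor gene Fcgr1 was thus listed at a small fraction of the levels of Fcgr3 and Fcgr4.

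**Figure D1:**
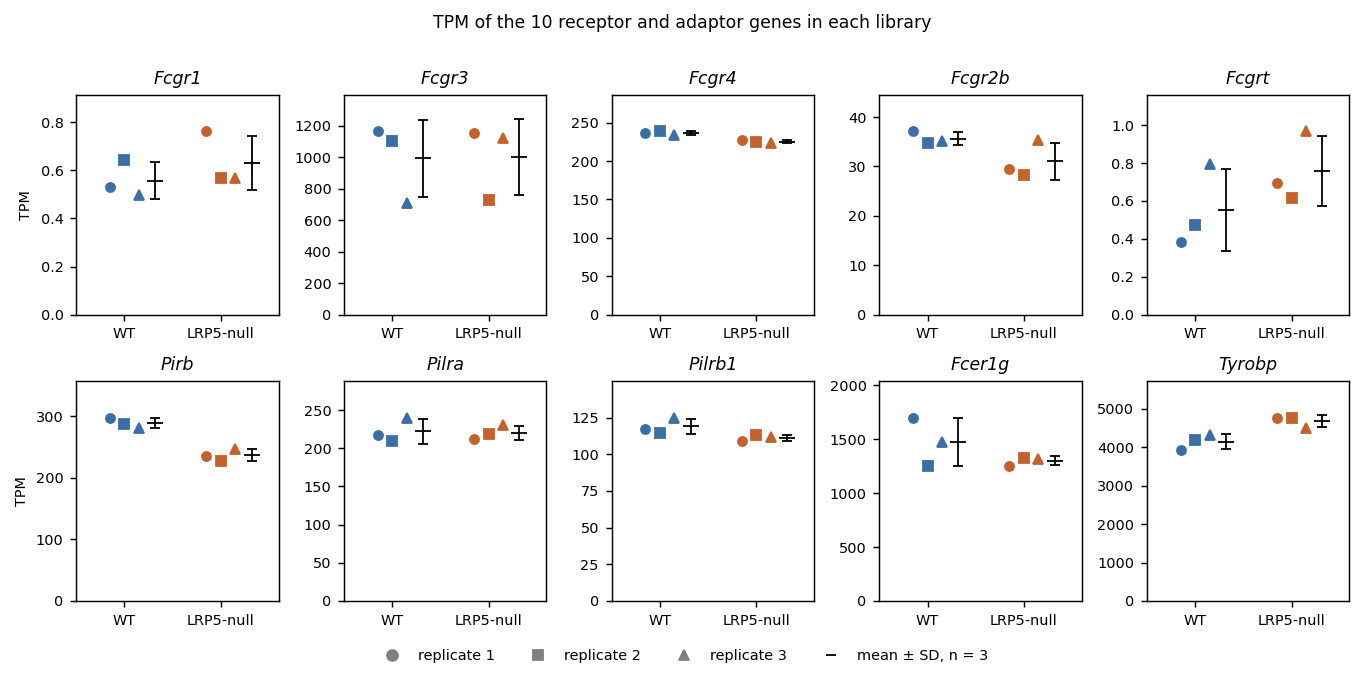
TPM (vertical axes, linear from 0, a scale for each gene) of the 10 genes in the libraries labelled WT (blue) and LRP5-null (orange), with a symbol per replicate and the mean ± SD (n = 3) in black. Pirb, Fcgr4 and Pilrb1 are lower and Tyrobp is higher in every library labelled LRP5-null, and Fcgr3 is low in 1 library of each label.

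Libraries labelled LRP5-null were compared with those labelled WT, the comparison the design makes, by limma on log2(TPM + 1) over the 9775 genes that averaged 1 TPM or more, with Benjamini-Hochberg adjustment. A fold change on this scale understates the change of low genes. Of the 10 genes, 8 passed the filter and 0 had an adjusted p under 0.05, where 0.532% of all genes tested did (0.266% on the higher side and 0.266% on the lower). At an unadjusted p under 0.05 there were 2 in limma, Pirb on the lower side and Tyrobp on the higher, against 23.5% of all genes tested (9.12% lower and 14.4% higher). Groups did not overlap for 4 of the 8, against 29.7% of all genes tested. Of the 4, 3 were lower, where 12.3% of all genes were, and 1 was higher, where 17.4% were. The log2 fold change was below 0 for 6 of the 8, against 41.2% of all genes tested, with a median of −0.082 against 0.040. In whole cell preparations, fewer cells that express a gene and less RNA per cell cannot be told apart.

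The comparison carries limits common to every gene. Lrp5, the targeted gene, stood at 1.68, 1.77 and 2.07 TPM under the label LRP5-null and at 1.12, 1.31 and 1.42 TPM under WT. It was not lower, so its level does not bear out the labels, on which each direction rests. TPM of a whole gene does not show whether its floxed part was removed. Lyz2 was called lower (log2 fold change −0.91, adjusted p = 0.00351 in limma). The read summary lists 249841492 to 340580330 reads per library, and the share of ribosomal RNA was at most 1.30% for WT replicates 1 and 2, against 3.30% for WT replicate 3 and 2.69% to 2.98% for the LRP5-null label. The intronic share separated the labels fully, at 10.6% to 11.2% against 7.78% to 9.0% in WT, and so did coverage variation (0.164 to 0.169 against 0.171 to 0.186). Neutrophil markers summed to 400798 to 445009 TPM in the libraries labelled WT and 429085 to 449282 TPM in those labelled LRP5-null. S100a8 and S100a9 made up most of it, while Mpo (3.75 to 5.76 TPM) and Elane (3.18 to 4.94 TPM) were low. Of the 16 rows, all tested, 3 were higher without overlap, Camp (log2 fold change 0.35), Elane (0.32) and S100a9 (0.18). On the lower side 2 rows did not overlap, Mmp8 (−0.41) and Cxcr2 (−0.15). Of all genes tested, 17.4% were higher and 12.3% lower without overlap. Monocyte and macrophage markers summed to 661 to 835 and 733 to 798 TPM, overlapping, and B cell and plasma cell markers to 18.4 to 23.0 and 21.9 to 22.7 TPM. Sums were higher without overlap in the libraries labelled LRP5-null for T and NK cell markers (16.0 to 17.9 against 11.8 to 13.9 TPM, most of it Cd3d), for eosinophil markers (12.4 to 13.2 against 9.34 to 11.1 TPM), for dendritic cell markers (20.9 to 22.0 against 14.2 to 18.3 TPM) and for platelet markers (4.88 to 5.65 against 3.10 to 4.41 TPM). Mast cell and basophil markers summed to 10.8 to 12.9 TPM in the libraries labelled WT and 12.3 to 13.6 TPM in those labelled LRP5-null, and erythroid markers to 12.2 to 16.0 and 12.3 to 14.1 TPM. Of the 9 T and NK cell markers, 7 were under 1 TPM in every library, Cd3e and Trac among them, and 0 markers of these lists were at 0 in all libraries. Of all marker genes, Prg2, which encodes the eosinophil major basic protein, was the 1 called in limma (0.850 to 1.16 TPM in WT against 2.33 to 3.13 TPM, log2 fold change 0.91, adjusted p = 0.0341), while Siglecf, the bulk of the eosinophil sum, had a log2 fold change of 0.034. The part of these cells in the values below was not tested.

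**Figure D2:**
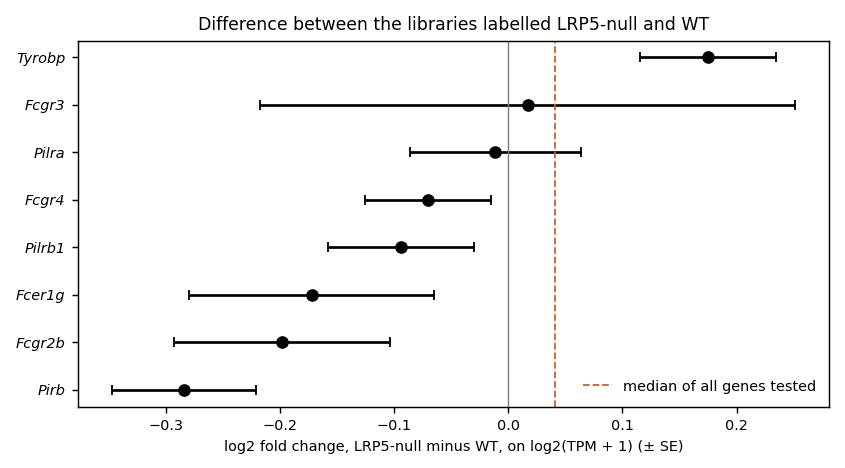
Log2 fold change on the log2(TPM + 1) scale (horizontal axis, libraries labelled LRP5-null minus WT, ± standard error from limma, n = 3 each) of the 8 genes tested, with the median of all genes tested as a dashed line at 0.040. Pirb lies lowest at −0.28 and Tyrobp highest at 0.18, and the error of Fcgr3 is the widest.

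Among the activating Fc gamma receptors, Fcgr4, which binds immunoglobulin G2 subclasses, was 236, 239 and 234 TPM in the libraries labelled WT and 227, 225 and 223 TPM in those labelled LRP5-null. The groups did not overlap, and each was narrow, at 236 ± 2.08 and 225 ± 1.83 TPM (SD, n = 3 each). The distance was nonetheless small. The log2 fold change was −0.070 (standard error 0.056, adjusted p = 0.469 in limma), since limma draws the spread of a gene towards that of genes of similar level. Fcgr1 was 0.532, 0.642 and 0.496 TPM in the libraries labelled WT and 0.761, 0.568 and 0.566 TPM in those labelled LRP5-null, with overlap.

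Fcgr3, the most abundant of these receptors, was 1165, 1105 and 709 TPM in the libraries labelled WT and 1155, 728 and 1125 TPM in those labelled LRP5-null. It stood low in WT replicate 3 and LRP5-null replicate 2, and the other 4 libraries lay within 1105 to 1165 TPM whatever their label. The log2 fold change was 0.017 (standard error 0.23, adjusted p = 0.973 in limma), and without these 2 libraries, a choice made after their values were seen, it was 0.0066 (adjusted p = 0.959 in limma). Single libraries set its sign, which went from −0.21 without WT replicate 3 to 0.23 without LRP5-null replicate 2, and median-ratio scaling also turned it (−0.027).

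Few genes shared that pattern. Of the 9775 genes tested, 7, Fcgr3 among them, were lower in both of these libraries than in each of the others by more than 0.5 on the log2(TPM + 1) scale, and 5 were higher by as much. The widest gap belonged to AC147560.1, a row with no stated function, at 79.8 TPM in WT replicate 3 and 79.7 TPM in LRP5-null replicate 2 and at 0.000231 to 0.00305 TPM in the other 4 libraries. Rab3d, which encodes a small GTPase of secretory vesicles, was 209 and 183 TPM in these libraries and 54.8 to 67.0 TPM in the others. These rows were chosen after their values were seen. The cause was not tested. Fcgr3 and Fcgr2b have outer domains of similar sequence, and how the authors' quantification divided reads between such genes was not tested. Fcgr2b was 35.2 TPM in WT replicate 3 and 28.3 TPM in LRP5-null replicate 2, and 29.6 to 37.1 TPM in the other libraries.

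**Figure D3:**
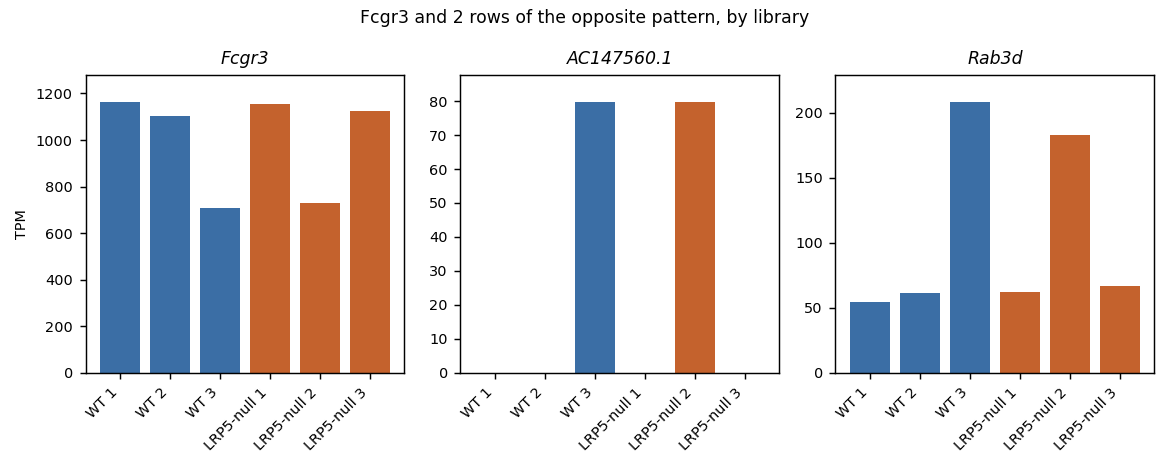
TPM by library (bars, linear axes from 0) of Fcgr3, AC147560.1 and Rab3d, in the libraries labelled WT (blue) and LRP5-null (orange). Fcgr3 is low at 709 and 728 TPM in the same 2 libraries in which AC147560.1 stands at 79.8 and 79.7 TPM.

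The inhibitory receptor gene Fcgr2b was 37.1, 34.7 and 35.2 TPM in the libraries labelled WT and 29.6, 28.3 and 35.3 TPM in those labelled LRP5-null. LRP5-null replicate 3 lay among the WT libraries, and the other 2 lay below them. The log2 fold change was −0.20 (standard error 0.095, adjusted p = 0.248 in limma) and ranged from −0.29 to −0.14 with a library left out.

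The ratio of activating to inhibitory Fc gamma receptor transcripts, the sum of Fcgr1, Fcgr3 and Fcgr4 over Fcgr2b, is unaffected by a single scaling factor per library. It was 37.8, 38.8 and 26.8 in the libraries labelled WT and 46.8, 33.7 and 38.2 in those labelled LRP5-null. The groups overlapped (difference of 0.20 on the log2 scale, exact permutation test, two-sided, p = 0.5, where 0.1 is the smallest p possible with 3 libraries against 3). Fcgr3 made up most of the sum, so the low values in each group are those of the libraries low in Fcgr3. The difference was 0.034 without WT replicate 3, 0.077 without LRP5-null replicate 1, 0.31 without LRP5-null replicate 2 and 0.55 against WT replicate 3 alone. The ratio of Fcgr4 to Fcgr2b, chosen after the data had been seen, was 6.38, 6.88 and 6.66 in WT and 7.67, 7.96 and 6.32 under the LRP5-null label, again with overlap (0.13, exact permutation test, two-sided, p = 0.4).

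Of the 8 genes, Pirb showed the largest difference. It was 298, 287 and 282 TPM in the libraries labelled WT and 236, 227 and 247 TPM in those labelled LRP5-null. Every library labelled LRP5-null was below every library labelled WT, and the means of 237 ± 10.1 and 289 ± 8.14 TPM (SD, n = 3 each) had a ratio of 0.821. The log2 fold change was −0.28 (standard error 0.063, unadjusted p = 0.00230, adjusted p = 0.0892 in limma), short of the threshold. It kept between −0.33 and −0.25 in the 19 alternative fits. Against WT replicate 3 alone, the WT library of similar ribosomal share, it was −0.25 (adjusted p = 0.229 in limma). In that fit the spread comes from the libraries labelled LRP5-null, and the lone WT library is assumed to vary like them. It passed the threshold without WT replicate 3 (adjusted p = 0.0234 in limma), where 19.6% of all genes tested did, and after removal of the trends of GC content and transcript length (adjusted p = 0.0356 in limma), where 4.44% did.

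Pirb has close relatives whose reads the authors' quantification could have shared with it. Lilra6, a member of the same cluster by name, was 94.6, 91.4 and 91.2 TPM in the libraries labelled WT and 81.8, 82.1 and 90.2 TPM in those labelled LRP5-null, with no overlap (log2 fold change −0.12, adjusted p = 0.304 in limma). Pira2, which encodes an activating PIR-A receptor, was 18.2, 22.9 and 22.1 TPM against 21.0, 19.5 and 22.8 TPM, with overlap. Lilra6, Pira2 and Pilrb2 below were taken as relatives after their values were seen.

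The PILR pair differed little. Pilra was 217, 209 and 240 TPM in the libraries labelled WT and 212, 218 and 230 TPM in those labelled LRP5-null, the latter within the range of the former (log2 fold change −0.011, standard error 0.075, adjusted p = 0.942 in limma). Pilrb1 was 117, 115 and 125 TPM in the libraries labelled WT and 109, 113 and 112 TPM in those labelled LRP5-null. Its groups did not overlap, but the nearest libraries lay at 115 and 113 TPM (log2 fold change −0.094, standard error 0.064, adjusted p = 0.401 in limma). With the GC and length trends removed, Pilrb1 was −0.18 (adjusted p = 0.0581 in limma). Pilrb2, a near copy that could share reads with it, was 199, 178 and 194 TPM against 171, 172 and 178 TPM, and the groups met at 178 TPM.

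The ratio of Pilrb1 to Pilra was 0.541, 0.549 and 0.521 in the libraries labelled WT and 0.516, 0.519 and 0.486 in those labelled LRP5-null. The groups did not overlap, with the LRP5-null label on the lower side (difference of −0.083 on the log2 scale, p = 0.1 in the two-sided exact permutation test, which can give no smaller one). WT replicate 3 and LRP5-null replicate 2 were the nearest, at 0.521 and 0.519. Against WT replicate 3 alone the difference was −0.040, and without LRP5-null replicate 3 it was −0.053. After quantile normalization it was −0.054, with p = 0.4 in the two-sided exact permutation test.

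The adaptors lay on opposite sides of 0. Tyrobp was 3937, 4172 and 4319 TPM in the libraries labelled WT and 4764, 4759 and 4503 TPM in those labelled LRP5-null, with no overlap. The means were 4143 ± 193 and 4675 ± 150 TPM (SD, n = 3 each), and the log2 fold change was 0.18 (standard error 0.060, unadjusted p = 0.0204, adjusted p = 0.155 in limma). It passed the threshold without WT replicate 3 (0.21, adjusted p = 0.0420 in limma). Against WT replicate 3 alone it was 0.11, and with trends of GC content and length taken out 0.025 (adjusted p = 0.725 in limma). The 2 trends were removed together, and the longest transcript of Tyrobp has 564 bases and a GC content of 55.5%, against 3824 bases and 48.5% for Pirb. That of Fcer1g has 674 bases and 52.5%, and Fcer1g went from −0.17 to −0.29 in the same fit. The part of length or GC content in these shifts was not tested.

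Fcer1g was 1699, 1253 and 1477 TPM in the libraries labelled WT and 1254, 1330 and 1317 TPM in those labelled LRP5-null. The WT libraries spread widely, WT replicate 2 lay just below all libraries labelled LRP5-null, and the groups overlapped (log2 fold change −0.17, standard error 0.11, adjusted p = 0.363 in limma). Without WT replicate 1 it was −0.066 and without WT replicate 2 −0.29.

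The ratio of Fcer1g to Tyrobp was 0.432, 0.300 and 0.342 in the libraries labelled WT and 0.263, 0.280 and 0.292 in those labelled LRP5-null. It was lower in every library labelled LRP5-null, and the difference of −0.35 on the log2 scale had p = 0.1 in the exact permutation test, two-sided, the smallest possible. The nearest libraries were WT replicate 2 and LRP5-null replicate 3. Without WT replicate 1, whose ratio stood well above the rest, the difference was −0.20. Against WT replicate 3 alone it was −0.30.

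**Figure D4:**
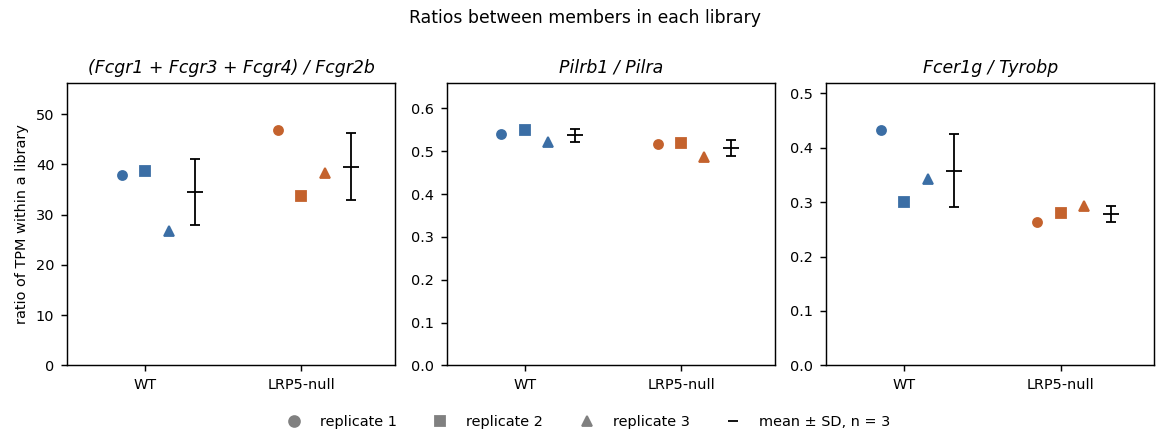
Ratios of TPM within each library (vertical axes, linear from 0) for activating over inhibitory Fc gamma receptors, Pilrb1 over Pilra and Fcer1g over Tyrobp, in the libraries labelled WT (blue) and LRP5-null (orange), with mean ± SD (n = 3) in black. The first ratio overlaps between labels, whereas the others are lower in every library labelled LRP5-null.

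The genes whose pattern over the 6 libraries lay nearest to that of each adaptor were found by the mean absolute difference of log2(TPM + 1) centred on its mean, among all genes tested. For Tyrobp they included Cyba (0.015) and Bloc1s1 (0.015). Cyba, which encodes the p22phox subunit of the phagocyte oxidase, was 1481, 1612 and 1660 TPM in the libraries labelled WT and 1871, 1857 and 1743 TPM in those labelled LRP5-null. For Fcer1g they were Man1a2 (0.019), Fip1l1 (0.024) and Ccdc34 (0.031), all lower in abundance than Fcer1g. All were highest in WT replicate 1, which follows from the choice, since Fcer1g itself was highest there.

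Fcgrt was 0.386, 0.471 and 0.795 TPM in the libraries labelled WT and 0.695, 0.616 and 0.967 TPM in those labelled LRP5-null, with overlap. Its partner chain gene B2m, in contrast, was abundant, at 2037, 1660 and 1557 TPM in the libraries labelled WT and 1439, 1478 and 1499 TPM in those labelled LRP5-null. Those labelled LRP5-null were the lower without overlap (log2 fold change −0.24, unadjusted p = 0.0444, adjusted p = 0.203 in limma). B2m lies outside the rule by which genes were named and was taken after its values were seen, as the chain with which FcRn pairs.

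Ligands and partner chains had 10 genes tested of 17 listed, of which 1 rose, 0 fell and 9 did not pass the test, where 0.532% of all genes tested were called, with a median log2 fold change of 0.053. The gene that rose was Ighg1, the constant region of immunoglobulin G1, at 0.754, 0.870 and 0.691 TPM in the libraries labelled WT and 1.65, 1.75 and 1.91 TPM in those labelled LRP5-null (log2 fold change 0.65, standard error 0.085, adjusted p = 0.0357 in limma). It is a plasma cell transcript, and its level was low in every library. Its WT values lay under 1 TPM, with a mean of 0.772 TPM. It reached the mean of 1 TPM that the filter asks only through the libraries labelled LRP5-null. The call thus rests on a row admitted by the group in which it is high. Jchain, the joining chain gene of plasma cells, was 7.97, 3.97 and 7.74 TPM in WT and 8.39, 8.04 and 8.39 TPM under the LRP5-null label. It was higher without overlap (0.34, adjusted p = 0.362 in limma), and the summed B cell and plasma cell markers overlapped. Of the other immunoglobulin constant genes tested, Ighg2c was lower without overlap, at 1.73 to 2.43 TPM in WT against 1.23 to 1.71 TPM (−0.26, adjusted p = 0.234 in limma). Ighg2b (−0.0051), Igha (0.097) and Ighm (0.029) overlapped between labels. These constant genes were taken after their values were seen. The part of plasma cells in the Ighg1 value was not tested. Rtn4, which encodes Nogo, a ligand of PIR-B, was 38.0, 42.0 and 26.7 TPM against 23.5, 17.5 and 17.9 TPM, without overlap (log2 fold change −0.81, adjusted p = 0.0892 in limma). H2-K1, a class I molecule of the kind PIR-B binds, was 191, 208 and 251 TPM against 257, 267 and 282 TPM (0.32, adjusted p = 0.149 in limma). H2-D1, the other class I gene listed and the more abundant, overlapped between labels, at 1287 to 1686 TPM against 1554 to 1584 TPM (0.076, adjusted p = 0.659 in limma). H2-D1 was taken after its values were seen. Mag, which encodes a myelin protein that binds PIR-B, was 2.35 ± 0.128 TPM against 2.91 ± 0.0807 TPM (SD, n = 3 each), without overlap (0.22, adjusted p = 0.155 in limma).

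Other Fc receptor family genes had 5 tested of 16 listed, with 0 called and a median of −0.023. Trim21, which encodes a cytosolic antibody receptor, was 10.8 to 11.3 TPM in WT and 9.30, 9.07 and 10.2 TPM in the other group (−0.19, adjusted p = 0.183 in limma), without overlap. Fcrla (0.21), Tarm1 (−0.13) and Fcrl1 (0.057) overlapped between labels and had limma adjusted p from 0.236 to 0.706. Fcer1a and Ms4a2, the chains of the mast cell receptor for immunoglobulin E that also uses the gamma chain, had a mean under 1 TPM.

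Other paired and ITAM-coupled myeloid receptors had 37 rows tested, with 0 called, 18 above and 19 below 0 and a median of −0.00088. Groups did not overlap for 16 of the 37, 8 higher and 8 lower, where 17.4% and 12.3% of all genes tested were. The smallest p belonged to genes on the higher side. Itgax, which makes up most of the higher dendritic cell marker sum, also stood higher (0.56, adjusted p = 0.0754 in limma), whereas Bst2, the other marker of that list tested, overlapped (0.17, adjusted p = 0.353 in limma), and the part of such cells in these values was not tested. Clec4n, which encodes the fungal receptor Dectin-2 and signals through the gamma chain, was 23.5, 23.8 and 24.2 TPM in the libraries labelled WT and 32.2, 29.9 and 35.0 TPM in those labelled LRP5-null (0.42, adjusted p = 0.0648 in limma). Treml4 stood at 12.3 to 12.7 TPM against 15.2 to 15.8 TPM, Cd300c2 at 52.6 to 59.8 TPM against 70.0 to 73.1 TPM and Cd300a, an inhibitory receptor gene, at 77.4 to 86.0 TPM against 96.2 to 101 TPM. Their limma adjusted p were 0.0898, 0.0907 and 0.103.

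Downstream of the receptors, the ITAM signalling list had 27 genes tested of 30, with 0 called and a median of −0.017. Groups did not overlap for 8 of the 27 (29.6%), near the 29.7% of all genes tested. Of the 27, 6 were lower without overlap, where 12.3% of all genes tested were, and 2 were higher, where 17.4% were. Lyn, a Src family kinase that phosphorylates both kinds of motif, was 212, 201 and 217 TPM in the libraries labelled WT and 169, 177 and 189 TPM in those labelled LRP5-null (−0.24, standard error 0.069, adjusted p = 0.129 in limma). Lcp2, which encodes the adaptor SLP-76, was 157, 132 and 147 TPM against 117, 123 and 127 TPM (−0.24, adjusted p = 0.153 in limma). Itpr2 (0.27) and Pik3ap1 (0.26) lay on the higher side, with limma adjusted p of 0.155 and 0.168.

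ITIM phosphatases and inhibitory adaptors had 12 genes tested of 14, with 0 called and a median of −0.027. Groups did not overlap for 3 of the 12 (25.0%, against 29.7% of all genes tested). These 3 were lower under the LRP5-null label, where 12.3% of all genes tested were, and 0 were higher, where 17.4% were. Ptpn6, which encodes SHP-1, the phosphatase recruited by PIR-B, was 395, 380 and 422 TPM in the libraries labelled WT and 354, 359 and 354 TPM in those labelled LRP5-null (−0.17, standard error 0.063, adjusted p = 0.181 in limma). Ptprc, which encodes CD45, was 865, 808 and 722 TPM against 656, 665 and 685 TPM (−0.25, adjusted p = 0.139 in limma). Ptpn22 (−0.12) and Dok1 (0.24) had limma adjusted p of 0.339 and 0.303.

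**Figure D5:**
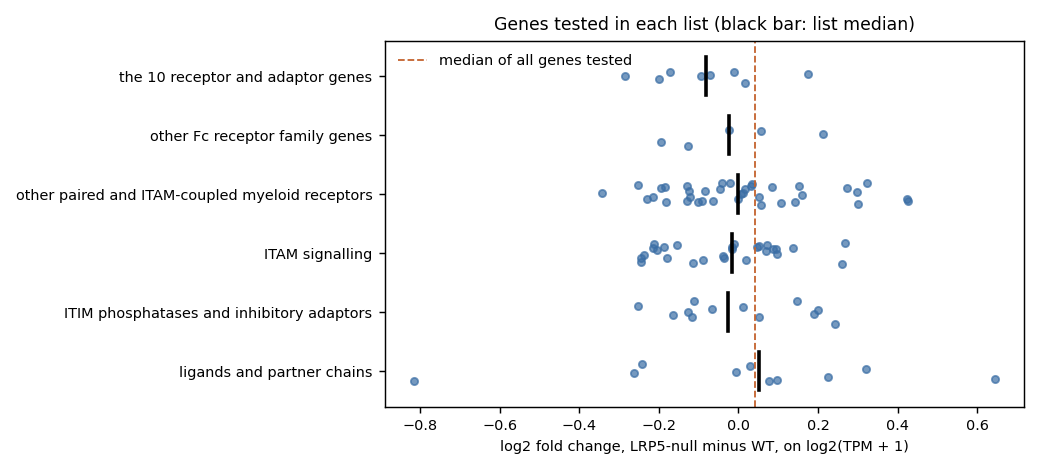
Log2 fold change on the log2(TPM + 1) scale (horizontal axis, libraries labelled LRP5-null minus WT) of each gene tested (points, spread vertically for legibility) in the 6 lists, with list medians as black bars and the median of all genes tested as a dashed line at 0.040. The 8 genes of the receptor and adaptor group have a median of −0.082, and the outermost points are Rtn4 at −0.81 and Ighg1 at 0.65.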

How the data were processed

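RNA-seq of bone marrow neutrophils was taken as the authors deposited it, as TPM per gene. Reads had been aligned to mm9 and quantified with the DESeq2 pipeline according to the methods; the tool that gave TPM is not given in the sources used here. A read summary deposited by the authors holds counts of reads, shares in percent, a ratio for coverage bias at transcript ends, a coverage variation score and insert sizes.

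TPM keeps no counts, so a count model was not used and the counting error of a single value is unknown. Genes averaging 1 TPM or more were tested together by limma 3.58.1 (R 4.3.3), with log2(TPM + 1) as the measure and a variance trend, and ratios with exact permutation tests in scipy 1.17.1. The fit was tested on simulated data. Coordinates and the GC content and length of transcripts came from GENCODE M1 (NCBIM37), matched on gene identifiers without version for 89.7% of genes tested, and promoters from RefSeq (GRCm38.p6). The table's identifiers are of a later annotation than GENCODE M1.

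The genes and lists were chosen with earlier results of these data known. Of each gene list other than the cell type markers, called genes and the 4 of smallest p are named, besides the receptor genes, Lrp5 and Lyz2, and the 3 genes of nearest pattern to each adaptor, of which 1 is not reported here. Of the 58 other paired receptor symbols, 46 matched the table. Alternatives were another pseudocount (0.1), other filters (none, or 5 TPM), 3 other scalings, 2 other variance models, each library left out, the replicate block, WT replicate 3 alone, the ribosomal share as a covariate and GC and length trends removed. Leaving out WT replicate 3 and LRP5-null replicate 2 together, and the ratio without Fcgr3, were added after the data had been seen.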

Additional observations from a re-analysis of the deposited data

How the results depend on the processing

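None of the 8 genes tested was called in the main comparison. In 17 of the 19 alternatives the count was again 0, it was 1 with the GC and length trends removed (Pirb), and it ranged from 0 to 2 with a library left out, the 2 being Pirb and Tyrobp without WT replicate 3. Fcgr2b, Fcgr4, Fcer1g, Pirb, Pilrb1 and Tyrobp kept their direction in all 19 alternatives. Fcgr3 was −0.027 under median-ratio scaling, −0.020 with the trends removed and from −0.21 to 0.23 with a library left out. Pilra was 0.015 after rescaling without the most abundant genes, 0.051 without WT replicate 3 and LRP5-null replicate 2 together and from −0.053 to 0.046 with a library left out. The median of the genes tested was −0.082 and moved to −0.041 without a filter, when Fcgr1 and Fcgrt entered, −0.13 under median-ratio scaling, −0.15 against WT replicate 3 alone and −0.14 with the trends removed, and lay between −0.12 and −0.068 with a library left out. The ratios kept their direction in the alternatives run for them, 11 for activating to inhibitory receptors and 9 for each of the others, which did not include removal of the trends, the covariate or the filters.

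Over all genes, 52 were called, 3 without a filter, 29 at a mean of at least 5 TPM, 98 after rescaling without the most abundant genes (72.4% of them higher, against 50% of the 52), 6 against WT replicate 3 alone, 6 with the ribosomal share as a covariate, 389 with the trends removed (36.8% higher), 271 without WT replicate 3 and LRP5-null replicate 2 together and 2 to 1920 with a library left out. These were 18, 3 and 1920 without WT replicates 1, 2 and 3 and 2, 15 and 2 without LRP5-null replicates 1, 2 and 3. The cause was not tested. Replicate numbers are shared by the labels. Across genes, the deviations of same-numbered libraries correlated at 0.23, −0.0075 and 0.13, and those of libraries with different numbers at −0.21 to 0.083. Whether the libraries were prepared in pairs is not stated, and these values do not settle it. With the replicate block 4 genes were called, 0 of the receptor and adaptor genes among them.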
